A study of Mus musculus with 8 samples.

Results

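The 7 genes described here encode the ligands and receptor tyrosine kinases of the vascular endothelial growth factor (VEGF) system: the ligands Vegfa, Vegfb, Vegfc and Pgf and the receptors Kdr, Flt1 and Flt4. They were chosen by name, and each was listed once by its symbol among the 33641 gene symbols of every library. All 7 were among the 14964 genes tested, a set that required a TPM of 1 or more in 4 or more of the 8 libraries.

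RNA-seq was performed on tumor endothelial cells (TECs), sorted by FACS as CD45-CD31+ cells from Lewis lung carcinoma (LLC) tumors, a mouse lung carcinoma line grown orthotopically in the left lung lobe, at day 21. The endFoxf1+/- mice were Pdgfb-CreER tg/+; Foxf1 fl/+ on a C57Bl/6 background, so that tamoxifen (3 mg by gavage, at 6 to 8 weeks of age) removed exon 1 of 1 Foxf1 allele in cells in which the Pdgfb promoter drives Cre, and the other allele remained. The labels of the control samples say only "control"; the study names as controls tamoxifen-treated littermates with only 1 of the 2 alleles (Pdgfb-Cre tg/+ or Foxf1 fl/+) and, for the tumor model, C57Bl/6 wild-type mice, so whether a given control library carried the Cre transgene is not stated. There were 4 libraries per group, and the series design gives 4 mice per group; the legend of 1 plot of these data in the study names fewer samples, and the labels do not tie a library to a mouse. The libraries are called here C1 to C4 (control replicates 1 to 4) and H1 to H4 (endFoxf1+/- replicates 1 to 4).

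VEGF-A binds KDR (VEGFR2), the main signaling receptor of blood vessel endothelium for growth, survival and permeability, and FLT1 (VEGFR1), which binds it more tightly but signals weakly and also exists as a secreted decoy. PGF and VEGF-B bind FLT1 and not KDR. VEGF-C binds FLT4 (VEGFR3), the receptor of lymphatic and sprouting endothelium, and, after processing, KDR as well, and the neuropilins NRP1 and NRP2 are co-receptors. In the lung, alveolar epithelium is a main source of VEGF-A and endothelium the main site of KDR. Pathological vessels respond to PGF, which several cell types of a tumor can make.

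The 8 libraries did not hold the same amount of endothelial RNA, which touches every value below. Taken over 20 endothelial markers, Pecam1 (CD31) and Cdh5 among them, the geometric mean of the TPM was 357 to 461 in the control libraries, 455 in H1, 466 in H2, 239 in H4 and 24.1 in H3, which is 5.60% of the control mean in H3 and 55.5% in H4. In H3 Pecam1 itself stood at 77.5 TPM against 1061 to 1505 TPM in the control libraries, so the endothelial label holds poorly for this library. The summed TPM of 14 myeloid markers was 1473 to 5103 in the control and 1901 to 8918 in the endFoxf1+/- libraries. Lyz2 alone gave 1351 to 4955 and 1582 to 6870 TPM of these sums. All 14 were higher in the endFoxf1+/- group (median log2 difference 1.40), and 13 without H3 (median 0.69). In 3 of the 14 every endFoxf1+/- library was above every control library. Among all genes tested 2.73% were above in this way and 2.31% below, shares that also apply to the marker counts that follow. The sum of 14 fibroblast and pericyte markers was 132 to 207 and 183 to 1355 TPM, with 3 of 14 above (Col3a1, Dcn and Lum) and 2 of 14 below (Rgs5 and Postn). Both sums were highest in H3. The sum of 14 epithelial markers was 7268 to 33234 and 1671 to 27473 TPM, lowest in H3, with 1 of 14 below. The sum of 14 lymphocyte markers was 23.2 to 34.1 and 23.4 to 121 TPM, with 2 of 14 above, that of 10 erythroid and platelet markers 936 to 1941 and 401 to 983 TPM, with 4 of 10 below, that of 6 lymphatic markers 410 to 646 and 74.2 to 755 TPM, with 1 of 6 (Pdpn) above, and that of 10 proliferation genes 209 to 236 and 223 to 537 TPM, with 3 of 10 (Mki67, Bub1 and Rrm2) above. Of the 20 endothelial markers 1, Cldn5, was below every control library in all endFoxf1+/- libraries. The part of other cells in the VEGF results was not tested. Foxf1, the deleted gene, was at 213, 285, 296 and 331 TPM in C1 to C4 and at 177, 203, 14.04 and 105 TPM in H1 to H4, every endFoxf1+/- library lying below all control libraries (p = 0.0286 by exact permutation over 70 assignments, two-sided, the smallest p that this design allows). Relative to the endothelial markers, a scale explained below, Foxf1 overlapped between the groups, at -1.11 to -0.27 in the control libraries and -1.36, -1.20, -0.78 and -1.18 in H1 to H4, with 3 of 4 below every control library and H3 within their range (difference -0.51; exact permutation p = 0.0571).

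In control TECs the levels of the members, which TPM give per transcript length, spanned from Kdr at 478 ± 95.9 TPM (SD, n = 4) to Pgf at 5.60 ± 2.02 TPM. Vegfa at 290 ± 81.3 TPM and Flt1 at 281 ± 29.1 TPM came next to Kdr, then Flt4 at 42.9 ± 10.3 TPM, Vegfc at 38.9 ± 11.9 TPM and Vegfb at 18.6 ± 2.39 TPM. The ranges of the neighbours Kdr and Vegfa, Vegfa and Flt1, and Flt4 and Vegfc overlapped, while Flt1 lay above Flt4, Vegfc above Vegfb and Vegfb above Pgf in every control library. By mean control TPM, 99.2% of all listed symbols were at or below Kdr, 98.7% at or below Vegfa and 68.7% at or below Pgf. Vegfa made up 80.7 to 83.0% of the summed TPM of the 4 ligands in the control libraries and 84.3 to 86.8% in H1, H2 and H4, but 38.0% in H3, where Vegfb was at its highest. Kdr made up 51.4 to 64.9% of the summed TPM of the 3 receptors in the control and 48.2 to 60.2% in the endFoxf1+/- libraries.

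**Figure D1:**
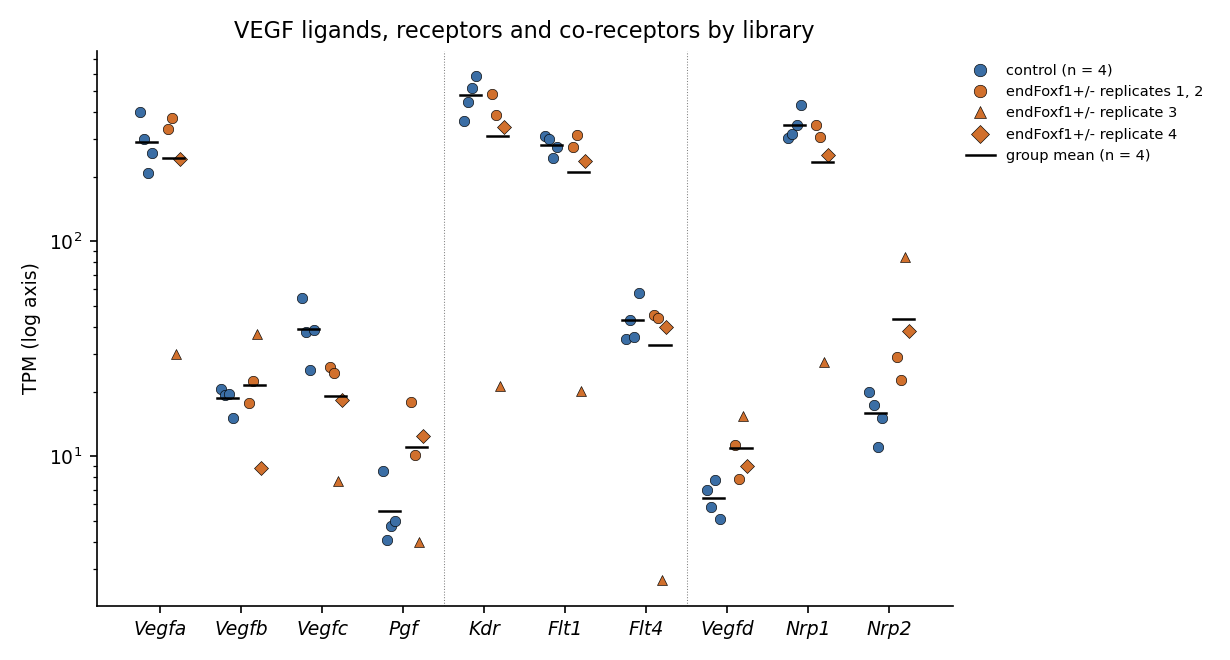
TPM (log axis) of the 4 ligands, the 3 receptors and, to the right, Vegfd and the co-receptors Nrp1 and Nrp2; each point is 1 library, black bars are group means (n = 4), and triangles and diamonds mark H3 and H4. The triangle falls far below the other points for Vegfa, Kdr, Flt1, Flt4 and Nrp1, whereas Vegfd and Nrp2 lie above the control points in every endFoxf1+/- library.

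Kdr, Flt1 and Vegfa, the 3 most abundant members, are shown with the 250 bases before their RefSeq start (GRCm38.p6), to give the sequence beside the genes that carry most of the family's RNA. Capitals mark GGAA or its reverse complement, the core bound by ETS factors, a family with a known role in endothelial gene expression. Each sequence is printed 5′ to 3′ on the gene's own strand, the minus strand for all 3: Kdr at chr5:75978456-75978705, Flt1 at chr5:147726012-147726261 and Vegfa at chr17:46032378-46032627. The last 3 bases of the Kdr stretch are exonic in GENCODE vM21, and no base of the others is.
Kdr: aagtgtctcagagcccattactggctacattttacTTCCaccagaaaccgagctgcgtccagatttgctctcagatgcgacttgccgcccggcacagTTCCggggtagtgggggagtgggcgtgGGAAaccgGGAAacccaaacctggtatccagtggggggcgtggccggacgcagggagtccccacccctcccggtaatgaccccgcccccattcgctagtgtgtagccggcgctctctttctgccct
Flt1: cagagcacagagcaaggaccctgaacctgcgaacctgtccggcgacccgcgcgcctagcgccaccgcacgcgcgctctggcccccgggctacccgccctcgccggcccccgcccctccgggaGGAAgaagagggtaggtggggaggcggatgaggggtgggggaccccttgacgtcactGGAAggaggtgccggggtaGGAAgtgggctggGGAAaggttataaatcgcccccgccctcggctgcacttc
Vegfa: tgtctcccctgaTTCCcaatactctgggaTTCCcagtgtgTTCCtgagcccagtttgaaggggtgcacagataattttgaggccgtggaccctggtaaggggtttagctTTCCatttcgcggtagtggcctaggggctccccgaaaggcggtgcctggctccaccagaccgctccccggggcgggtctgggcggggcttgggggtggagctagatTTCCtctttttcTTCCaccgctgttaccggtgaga
The core occurred 4 times in the Kdr window, 4 times in that of Flt1 and 6 times in that of Vegfa, counting both strands, beside a median of 3 over the 32851 promoter windows of the same length, 93.4% of which held it. The core of the hypoxia response element, ACGTG or GCGTG, occurred 2 times in the Kdr, 1 time in the Flt1, 2 times in the Vegfb and 1 time in the Pgf window and was not found in those of Vegfa, Vegfc and Flt4 (38.6% of all windows). The Pgf and Flt4 windows lie over all 250 bases within exons annotated by GENCODE vM21. The forkhead motif TGTTTAC or TGTTTAT, which FOX proteins can bind, was in none of the 7 members' windows and in 7.10% of all windows. TATAAA was found in the Flt1 window, 31 bases before the start, and in 12.4% of all windows; matches of different motifs were counted separately even where they touched. All 7 members had a window. These matches describe letters in a short stretch and not binding.

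In GENCODE vM21 on GRCm38 no other annotated gene overlapped any member: Kdr lies at chr5:75932827-75978458, Flt1 at chr5:147561604-147726011, Flt4 at chr11:49609263-49652739, Vegfa at chr17:46016993-46032369, Vegfb at chr19:6982473-6987651, Vegfc at chr8:54077606-54187096 and Pgf at chr12:85166635-85177790. The TPM are given per gene. The 13 annotated Vegfa transcripts and the 6 of Flt1, membrane-bound and shorter forms included, could therefore not be told apart.

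To ask whether the loss of 1 Foxf1 allele went with a change in these genes, each was compared between the groups on the log2(TPM + 1) scale with limma. No member passed (adjusted p = 0.790 to 0.979 from limma with Benjamini-Hochberg adjustment), where 0% of all 14964 genes did, 836 of them having an unadjusted p below 0.05. Only Vegfc among the 7 had an unadjusted p under 0.05. No member was above every control library in all endFoxf1+/- libraries (2.73% of all genes were), and none was below (2.31%). The median difference over all genes tested was -0.17, 4782 genes being higher and 10182 lower in the endFoxf1+/- libraries. Scaling by quantiles or median ratios moved that median to -0.01, and changed the sign of no member.

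Among the ligands, Vegfa was at 399, 298, 207 and 257 TPM in C1 to C4 and at 331, 375, 29.9 and 241 TPM in H1 to H4. Outside H3 the groups lay within one another. The log2 difference was -0.69 (SE 0.72; limma, adjusted p = 0.808) and turned to 0.14 (SE 0.25; adjusted p = 0.911) without H3.

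Vegfc, the lymphangiogenic ligand, was at 54.3, 37.7, 25.2 and 38.5 TPM in C1 to C4 and at 26.2, 24.3, 7.72 and 18.2 TPM in H1 to H4. Only H1 reached into the control range, by less than 1 TPM above C3. The log2 difference was -1.07 (SE 0.39; limma, unadjusted p = 0.0225, adjusted p = 0.790; exact permutation p = 0.0571), and without H3 -0.71 (SE 0.26; limma, adjusted p = 0.669).

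Pgf, the FLT1-specific ligand, was at 8.56, 4.07, 4.76 and 4.996 TPM in C1 to C4 and at 17.8, 10.1, 4.01 and 12.4 TPM in H1 to H4. H1, H2 and H4 were above every control library, at 318%, 180% and 222% of the control mean, while H3 was below every control library. The log2 difference was 0.77 (SE 0.42; limma, adjusted p = 0.790; exact permutation p = 0.171). Without H3 it was 1.14 (SE 0.29, 95% confidence interval 0.48 to 1.80; limma, unadjusted p = 0.00405, adjusted p = 0.504), the exact permutation p over 35 assignments being 0.0571. Under limma's array weights, which gave H3 a weight of 0.0643 and H4 one of 0.178 against 1.17 to 3.85 for the other libraries, Pgf was the only member to pass, with a log2 difference of 1.40 (adjusted p = 0.0363). In that fit 148 genes passed in all and the median over all genes was 0.13.

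Vegfb was at 20.6, 19.4, 19.4 and 15.1 TPM in C1 to C4 and at 17.7, 22.4, 37.0 and 8.88 TPM in H1 to H4. Its highest and its lowest value were thus both in endFoxf1+/- libraries, H3 and H4, and the log2 difference was 0.05 (SE 0.38; limma, adjusted p = 0.979). Vegfd, the other ligand of FLT4 in this family and not among the 7 chosen genes, was at 6.996, 5.79, 7.78 and 5.13 TPM in C1 to C4 and at 11.3, 7.88, 15.5 and 9.04 TPM in H1 to H4. All 4 endFoxf1+/- values lay above all control values, the closest pair being 7.78 and 7.88 TPM (log2 difference 0.66, SE 0.28; limma, adjusted p = 0.790; exact permutation p = 0.0286).

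Among the receptors, Kdr was at 363, 444, 516 and 587 TPM in C1 to C4 and at 486, 387, 21.2 and 341 TPM in H1 to H4. Flt1 was at 309, 298, 243 and 275 TPM and at 276, 310, 20.1 and 236 TPM in the same order. Flt4 was at 35.1, 43.0, 36.1 and 57.3 TPM and at 45.2, 44.1, 2.65 and 39.9 TPM. For all 3 receptors H3 stood alone, at 4.43%, 7.13% and 6.18% of the control mean for Kdr, Flt1 and Flt4, and H1 and H2 were within or next to the control range. H4, at 71.4%, 84.0% and 93.1%, was below every control library for Kdr and Flt1 and within their range for Flt4. The log2 difference was -1.28 (SE 0.87) for Kdr, -0.97 (SE 0.76) for Flt1 and -0.87 (SE 0.75) for Flt4, with adjusted p = 0.790, 0.797 and 0.797 from limma. Without H3 the 3 differences were -0.23 (95% confidence interval -0.71 to 0.25), -0.04 (-0.40 to 0.32) and 0.03 (-0.41 to 0.48), so that each size came mostly from 1 library.

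The co-receptor Nrp1 behaved in the same way: 301, 315, 347 and 428 TPM in C1 to C4 and 345, 305, 27.4 and 253 TPM in H1 to H4 (log2 difference -1.06, SE 0.71; limma, adjusted p = 0.790; -0.21 without H3). Nrp2, the co-receptor of VEGF-C, was at 19.9, 17.3, 11.1 and 15.1 TPM in C1 to C4 and at 28.8, 22.6, 84.7 and 38.4 TPM in H1 to H4. Every endFoxf1+/- library was above every control library, H3 the most, at 535% of the control mean (log2 difference 1.25, SE 0.39; limma, unadjusted p = 0.0107, adjusted p = 0.790; exact permutation p = 0.0286). Without H3 the log2 difference of Nrp2 was 0.88 (SE 0.25; limma, adjusted p = 0.557). Nrp2 is also made by fibroblast-type and myeloid cells, which the CD31+ and CD45- gates, respectively, should remove. H3 and H4, the libraries with the most Nrp2, had the most fibroblast and pericyte marker RNA (1355 and 341 TPM). Their myeloid marker sums were 8918 and 4678 TPM, and that of C3, which had the least Nrp2, was 5103 TPM. Lyz2 alone gave 4955 TPM of this sum in C3, 6870 TPM in H3 and 4476 TPM in H4. The part of fibroblast-type and myeloid cells was not tested.

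**Figure D2:**
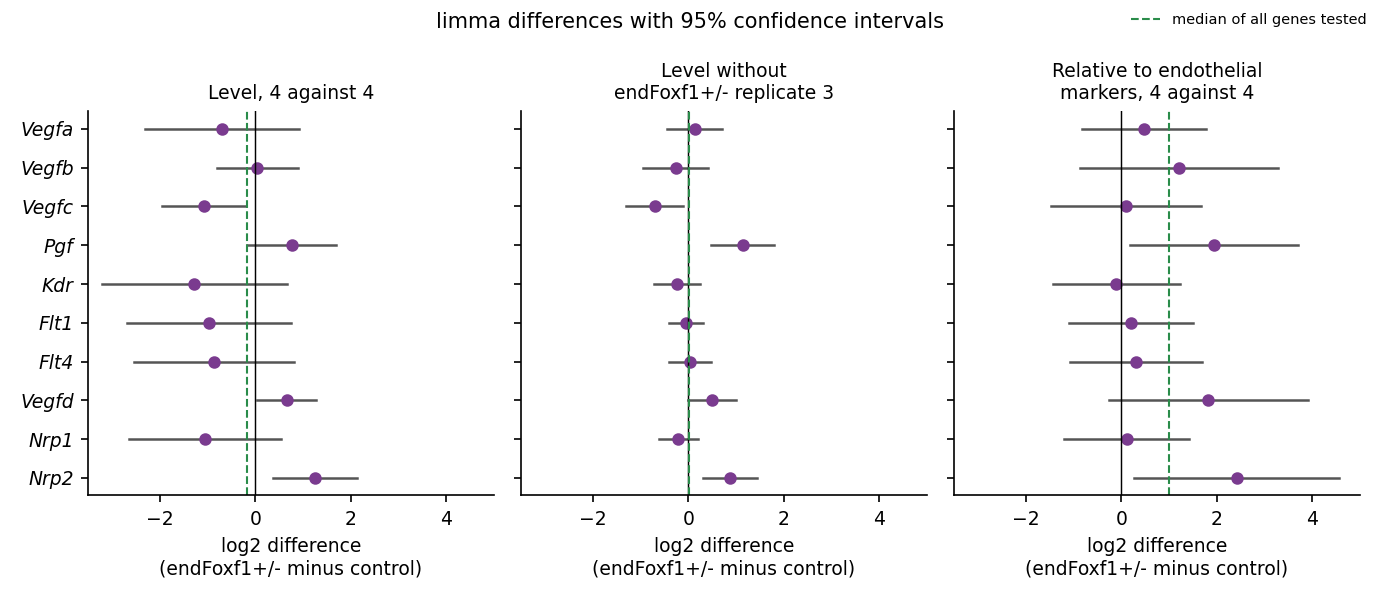
Difference in log2(TPM + 1), endFoxf1+/- minus control, from limma (points) with its 95% confidence interval (lines), for the level over 4 against 4 libraries, the level without H3, and the level relative to 20 endothelial markers; the dashed line is the median over all genes tested. Leaving out H3 brings Kdr, Flt1, Flt4 and Nrp1 close to 0 and narrows their intervals, while Pgf moves from 0.77 to 1.14 and Vegfc from -1.07 to -0.71.

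A level per cell and a number of endothelial cells cannot be told apart in such bulk samples, so each member was also expressed relative to endothelial transcripts, as its log2(TPM + 1) minus the mean log2(TPM + 1) of the 20 markers. Within this measure the question is whether a member differed between TECs of the 2 groups beyond the change in endothelial RNA. The marker mean was itself 1.17 lower on the log2 scale in the endFoxf1+/- libraries (-1.17; exact permutation p = 0.371) and 0.21 lower without H3 (-0.21; p = 0.657 by the same exact test). All genes therefore shifted upward on this scale, with a median difference of 1.001, and 97.1% of them were higher; without H3 the median was 0.22. A member has to be read against these medians.

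On this scale the receptors overlapped between the groups. Kdr was at -0.34, 0.00, 0.53 and 0.34 relative to the markers in C1 to C4 and at 0.09, -0.27, -0.22 and 0.51 in H1 to H4. Even H3, at 4.43% of the control mean in TPM, lay within the control range. Flt1 was at -0.57, -0.57, -0.56 and -0.75 in C1 to C4 and at -0.72, -0.59, -0.29 and -0.02 in H1 to H4. Flt4 was at -3.68, -3.33, -3.28 and -2.99 and at -3.31, -3.37, -2.82 and -2.55 in the same order. For Flt1 and Flt4, H3 and H4 were above every control library, and H1 and H2 lay within the control range. The difference was -0.11 (SE 0.64, 95% confidence interval -1.44 to 1.22) for Kdr, 0.21 (SE 0.62) for Flt1 and 0.31 (SE 0.66) for Flt4, with adjusted p = 0.893, 0.785 and 0.708 from limma. Exact permutation p-values were 0.743, 0.314 and 0.286. Vegfa also stayed near the markers, at -0.60 ± 0.29 (SD, n = 4) in the control and -0.13 ± 0.32 in the endFoxf1+/- libraries, a difference of 0.48 (limma, adjusted p = 0.556; exact permutation p = 0.0857), with H3 and H4 above every control library. Nrp1 differed by 0.11 (limma, adjusted p = 0.882).

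Pgf was the only one of the 7 members whose groups did not overlap on this scale, where 8.37% of all genes were above and 0.0601% below in every endFoxf1+/- library. It was at -5.59, -6.45, -5.96 and -6.27 in C1 to C4 and at -4.60, -5.40, -2.36 and -4.16 in H1 to H4. All 4 endFoxf1+/- values were higher than all control values, H3 the most. The difference was 1.94 (SE 0.84; limma, adjusted p = 0.492; exact permutation p = 0.0286), and 1.35 (SE 0.35; limma, adjusted p = 0.636) without H3. About 1.001 of this difference is the shift of the median gene. No member passed (limma), Pgf alone having an unadjusted p under 0.05, as had 329 of the 14964 genes, and 0.00668% of all genes passed, a single gene, Esr1 (estrogen receptor alpha), named here after its values were seen, with 0.368 to 0.750 TPM in the control and 11.1 to 140 TPM in the endFoxf1+/- libraries.

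Vegfb differed by 1.22 (SE 0.99; limma, adjusted p = 0.492) through H3 alone, which stood at 0.56 against -4.84 to -4.14 in the control libraries; without H3 the difference was -0.05. Vegfc differed by 0.10 with H3 and by -0.50 without it, H1 and H2 lying below every control library at -4.07 and -4.21 against -3.78 to -3.06 (limma, adjusted p = 0.910 and 0.636). Nrp2 was above every control library in every endFoxf1+/- library, by 2.42 (SE 1.03; limma, adjusted p = 0.492; exact permutation p = 0.0286), and by 1.08 without H3 (SE 0.38; limma, adjusted p = 0.636). Vegfd was above every control library in 3 of 4 endFoxf1+/- libraries and differed by 1.83 (SE 0.99; limma, adjusted p = 0.492), or by 0.70 without H3 (SE 0.33; limma, adjusted p = 0.636).

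**Figure D3:**
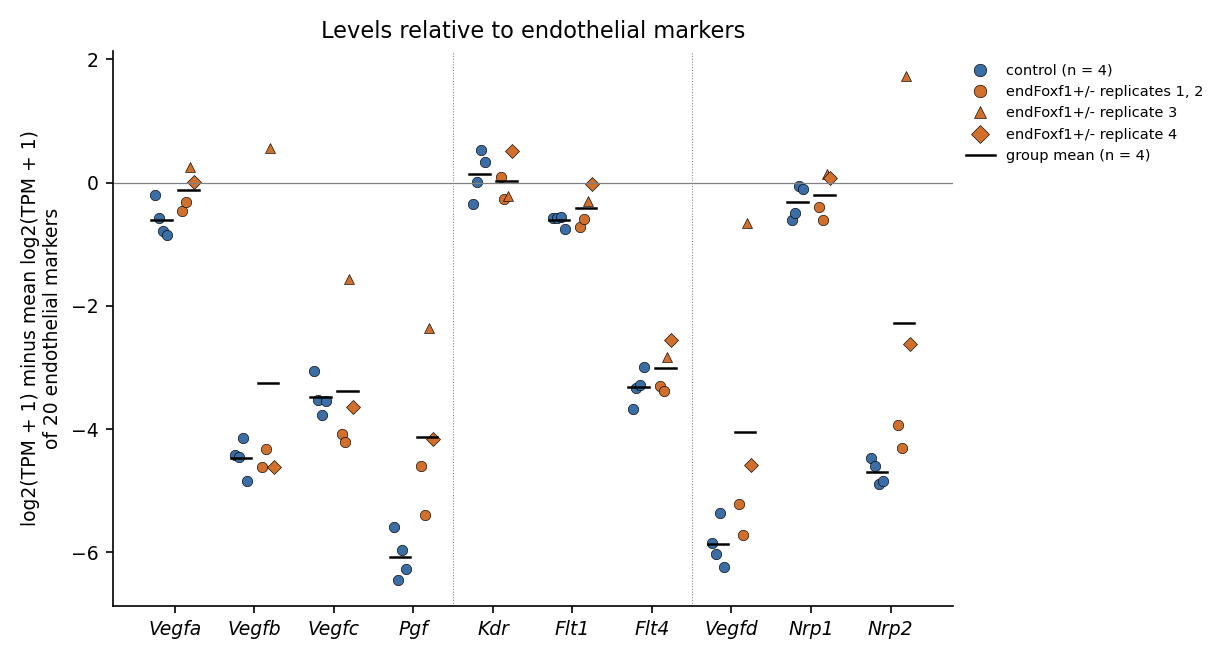
Level of each gene relative to endothelial markers (log2(TPM + 1) minus the mean over 20 markers) in each library, with group means (black bars, n = 4); triangles and diamonds mark H3 and H4. Kdr and Flt4 overlap between the groups with H3 inside or near the other points, and Pgf and Nrp2 lie above the control points in all 4 endFoxf1+/- libraries.

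Ratios between 2 members of the same library do not depend, apart from the pseudocount, on how a library is scaled. The 6 ratios examined were tested on the log2 scale with exact two-sided permutation tests, adjusted over the 6. The ratio of Pgf to Vegfa TPM was 0.0215, 0.0136, 0.0230 and 0.0194 in C1 to C4 and 0.0538, 0.0269, 0.134 and 0.0514 in H1 to H4. It was higher in all 4 endFoxf1+/- libraries than in any control library, with a log2 difference of 1.46 (exact permutation p = 0.0286, adjusted p = 0.171), or 1.001 without H3 (exact permutation p = 0.0286). Without any 1 of the control libraries the exact permutation p was 0.0571. The spread of these values was also wider in the endFoxf1+/- group, at 1.02 (SD of the log2 ratio, n = 4) against 0.30 in the controls.

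Among the receptor ratios, Flt1 to Kdr was 0.850, 0.671, 0.471 and 0.469 in C1 to C4 and 0.567, 0.803, 0.948 and 0.692 in H1 to H4, overlapping between the groups (log2 difference 0.31; exact permutation p = 0.314). Leaving out 1 library moved this difference to 0.48 without C1, 0.20 without C3 or C4 and 0.19 without H3. H3 had the highest ratio, next to that of C1. Flt4 to Kdr was 0.0698 to 0.0977 in the control and 0.0931 to 0.125 in the endFoxf1+/- libraries, 3 of 4 of the latter being above every control library (log2 difference 0.41; exact permutation p = 0.114, and 0.0286 without H1, with a log2 difference of 0.53, against 0.26 without H3). The summed TPM of the 3 receptors was 707 to 919 in the control libraries and 43.9 in H3, where their proportions lay close to those of C1. Of the receptor-to-ligand ratios, Kdr to Vegfa was 0.911 to 2.49 and 0.708 to 1.47 (log2 difference -0.58; exact permutation p = 0.2), and Flt1 to Vegfa 0.775 to 1.17 and 0.671 to 0.978 (-0.27; p = 0.171 by the same exact test). Without C1 these differences were -0.87 and -0.39 (exact permutation p = 0.0571 for each), and without H3 -0.37 and -0.18. Vegfa to Vegfb was 10.7 to 19.4 in the controls and 16.7 to 27.2 in H1, H2 and H4, against 0.808 in H3 (log2 difference -0.74; exact permutation p = 0.914; 0.40 without H3).

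**Figure D4:**
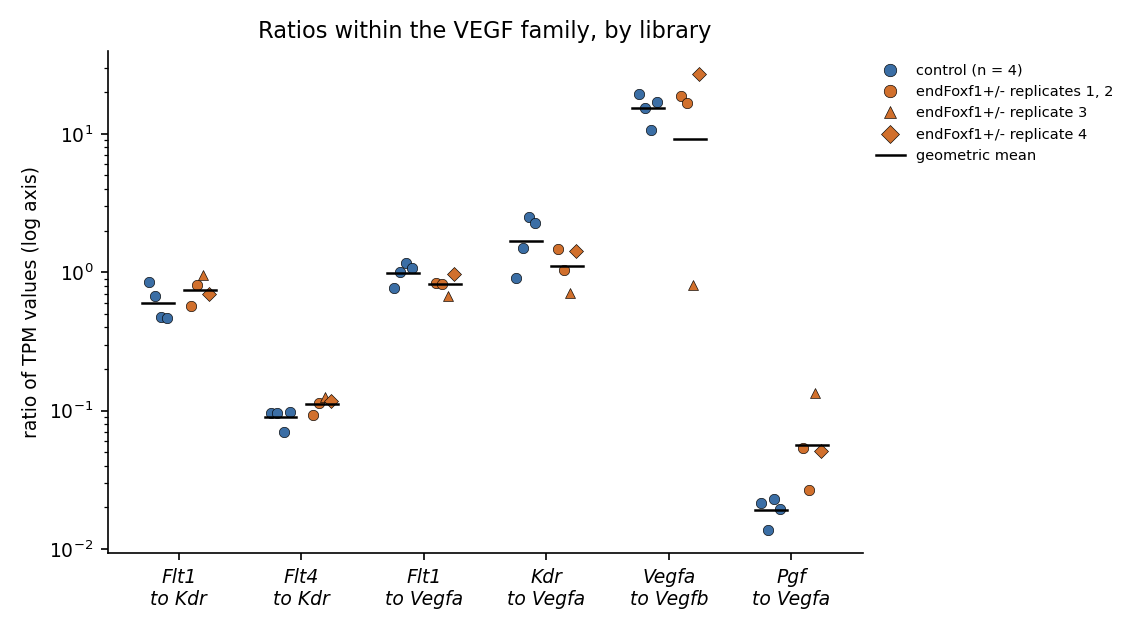
Ratios of TPM (log axis) between members in each library, with the geometric mean of each group (black bars, n = 4); triangles and diamonds mark H3 and H4. Pgf to Vegfa separates the groups, at 0.0136 to 0.0230 in the control and 0.0269 to 0.134 in the endFoxf1+/- libraries, and the other 5 ratios overlap.

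Across the 8 libraries, Pearson's r of log2(TPM + 1) with the mean of the endothelial markers was 0.988 for Flt1, 0.9754 for both Kdr and Vegfa, 0.973 for Flt4, 0.877 for Vegfc, 0.363 for Pgf and -0.544 for Vegfb. These values rest largely on H3. Over the 7 other libraries r was 0.825 for Flt1, 0.413 for Kdr, 0.611 for Vegfa, 0.334 for Flt4, 0.671 for Vegfc, -0.186 for Pgf and 0.838 for Vegfb, and that between Kdr and Vegfa went from 0.930 to -0.429. All points share the endothelial content and the scaling of their library, and the values are descriptive.

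By the same measure over 8 libraries, the genes most like Kdr were Tnik (0.998), Nrp1 (0.998) and Nhlrc2 (0.997), those most like Flt1 were Hdac7, Arhgef12 and Stap2 (0.998 each), and those most like Flt4 were Fkbp1a, Dgke and Cdk16 (0.996, 0.995 and 0.995). Those most like Vegfa were Lrrc32, Plekha3 and Nsd1 (0.998, 0.997 and 0.997), and those most like Vegfc were Gbp6 (0.996), Gm4070 (0.988) and Cdc42ep4 (0.987). Vegfb varied most like the ribosomal protein genes Rpl31 (0.982) and Rpl9 (0.981) and like Lpcat2 (0.981), and Pgf most like Hmces (0.973), Itsn1 (0.971) and Vkorc1l1 (0.969). Over the 7 libraries without H3 only Tnik for Kdr (0.966) and Gbp6 for Vegfc (0.991) stayed among the nearest 3 genes. Gbp6, an interferon-induced GTPase, was at 142, 107, 66.0 and 96.5 TPM in C1 to C4 and at 69.0, 58.8, 18.2 and 41.6 TPM in H1 to H4, in the same rank order as Vegfc except for C2 and C4. The other genes nearest over 7 libraries were Art4 and Tm2d1 for Kdr, Gm6061, Zrsr2 and Gm17660 for Flt1, Cpe, Brap and Wipf3 for Flt4, Ylpm1, Myo7a and Qtrt1 for Vegfa, Chst10, Zfp300 and 4931428L18Rik for Vegfb, Il4ra and Wars for Vegfc, and Vwa1, Gon4l and Nup155 for Pgf (r of 0.933 to 0.997). Vwa1, a matrix protein, had the range of Pgf most closely, at 5.19 to 10.9 TPM in the control libraries and 26.4, 15.3, 1.34 and 16.0 TPM in H1 to H4.

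The remaining genes of the pathway were taken from 4 lists. Of 24 receptor-proximal genes (adaptors, phosphatases and trafficking proteins at VEGF receptors) all were tested, 9 were higher and 15 lower, and none passed (limma with adjustment over all genes; 1 gene, Dab2, had an unadjusted p under 0.05). The median log2 difference was -0.17, as over all genes; without H3, 14 were higher and 10 lower, with a median of 0.08 beside 0.01 over all genes. Dab2, an endocytic adaptor of VEGF receptors, was the 1 gene of the 24 above every control library in all endFoxf1+/- libraries, beside 2.73% of all genes. It was at 24.8 to 33.1 TPM in the control and 51.1, 54.4, 98.9 and 68.5 TPM in H1 to H4 (log2 difference 1.12, SE 0.25; limma, unadjusted p = 0.00151, adjusted p = 0.790). Amotl2, an angiomotin family protein at endothelial junctions, was the 1 gene below, beside 2.31% of all genes. It was at 61.3 to 74.3 TPM against 51.3, 58.9, 5.96 and 37.2 TPM (-1.16, SE 0.60; limma, adjusted p = 0.790; -0.45 without H3), and on the scale relative to the markers it differed by 0.02.

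The endocytic adaptor Epn2, next by p, overlapped (-0.59; limma, adjusted p = 0.790; -0.24 without H3). The 3 most abundant genes of the list were Iqgap1, a scaffold that binds KDR, at 161 ± 3.78 and 175 ± 36.2 TPM (SD, n = 4 each), Efnb2, which directs internalization of VEGF receptors, at 151 ± 10.5 and 122 ± 84.2 TPM, and the phosphatase Ptp4a3 at 113 ± 12.5 and 93.2 ± 55.5 TPM. None of the 3 passed (limma, adjusted p = 0.895, 0.797 and 0.801), and H3 was the lowest library for Efnb2, at 13.1 TPM, and Ptp4a3, at 11.4 TPM, while Iqgap1 was farthest from the others in H4, at 224 TPM.

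Of 31 genes of the kinase cascades below the receptors, 30 were tested, 11 being higher and 19 lower with a median of -0.12, and none separated the groups or passed (limma; 0 also at an unadjusted p under 0.05). Without H3, 16 were higher and 14 lower, with a median of 0.0089. By p the first 3 were Prkcd (0.70), Hras (-0.57) and Mapk3 (-0.67), each with a limma adjusted p of 0.790 and overlapping groups; without H3 their differences were 0.35, -0.33 and -0.22. By abundance they were the GTPase Rac1, at 894 ± 69.3 and 684 ± 245 TPM, the small heat shock protein Hspb1, at 779 ± 655 and 387 ± 297 TPM with 1743 TPM in C1 alone, and Mapk3 (ERK1), at 351 ± 31.8 and 251 ± 125 TPM (SD, n = 4 each).

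Of 26 VEGF-responsive genes 11 were higher and 15 lower, with a median of -0.19, and none passed (limma; 2 genes, Rgcc and Cxcr4, at an unadjusted p under 0.05). Without H3, 15 were higher and 11 lower, with a median of 0.08. Icam1, a leukocyte adhesion molecule, was the 1 gene of the 26 below every control library in all endFoxf1+/- libraries, beside 2.31% of all genes. It was at 203 to 246 TPM in the control and 183, 144, 19.6 and 194 TPM in H1 to H4 (-1.17, SE 0.64; limma, adjusted p = 0.790; -0.40 without H3), with a difference of 0.00 relative to the endothelial markers. Rgcc, a cell cycle regulator, was at 42.2 to 62.1 TPM in the control and 102, 77.6, 54.1 and 95.1 TPM in H1 to H4 (0.69, SE 0.25; limma, adjusted p = 0.790). Cxcr4, a tip cell receptor, was at 15.9 to 22.7 TPM and 32.6, 30.4, 20.6 and 51.4 TPM (0.70, SE 0.29; limma, adjusted p = 0.790). In both genes H1, H2 and H4 were above every control library and H3 was not, the order also seen for Pgf. Relative to the markers Cxcr4 was above in all 4, beside 8.37% of all genes. Its difference there was 1.87 (limma, adjusted p = 0.492), beside a median of 1.001 over all genes. Sele, Adamts1 and Egr1, the others named by the rule, overlapped between the groups, with differences of -0.76, -0.32 and -0.10 (limma, adjusted p = 0.790, 0.881 and 0.948). Without H3 the difference of Adamts1 turned to 0.37, H1 (281 TPM) and H4 (276 TPM) being above every control library and H3 (36.5 TPM) below.

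Of 26 hypoxia-responsive genes, which share with Vegfa control by hypoxia-inducible factors, 21 were higher and 5 lower, with a median of 0.34 beside -0.17 over all genes, and none passed (limma; 5 genes, all higher, at an unadjusted p under 0.05). In 6 of the 26, beside 2.73% of all genes, every endFoxf1+/- library was above every control library: Slc2a1, Pgk1, Egln3, Ero1l, Eno1 and Hk2, most of them genes of glucose uptake and glycolysis. Relative to the endothelial markers 4 of the 26 were above (Pgk1, Egln3, Eno1 and Hk2), beside 8.37% of all genes. The list median on that scale was 1.51, beside 1.001 over all genes. The list was chosen with earlier results of these data known. Egln3, an oxygen-sensing prolyl hydroxylase, was at 1.42 to 2.08 TPM in the control and 5.72, 7.07, 29.8 and 3.49 TPM in H1 to H4 (1.79, SE 0.53; limma, unadjusted p = 0.00760, adjusted p = 0.790).

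Hk2, hexokinase 2, was at 7.32 to 11.5 TPM and 12.4, 12.1, 33.9 and 28.2 TPM (1.03, SE 0.37), and the glycolytic enolase Eno1 at 93.7 to 121 TPM and 153, 148, 695 and 194 TPM (1.18, SE 0.46, and 0.66 without H3), both with a limma adjusted p of 0.790. H3, which had the highest values of all 3, also had the most myeloid and proliferation marker RNA, whose part was not tested; without H3 the list median was 0.44, beside 0.01 over all genes, and 19 of 26 were higher. The 3 most abundant genes of the list did not pass: Epas1 (HIF-2 alpha), abundant in lung endothelium, at 2018 ± 228 and 1229 ± 901 TPM, Aldoa at 378 ± 55.0 and 379 ± 87.8 TPM and Ldha at 238 ± 31.8 and 468 ± 279 TPM (SD, n = 4 each; limma, adjusted p = 0.790, 0.989 and 0.790). Vegfa, itself a hypoxia-responsive gene and not counted in this list, lay within the control range in H1, H2 and H4 and below it in H3.

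**Figure D5:**
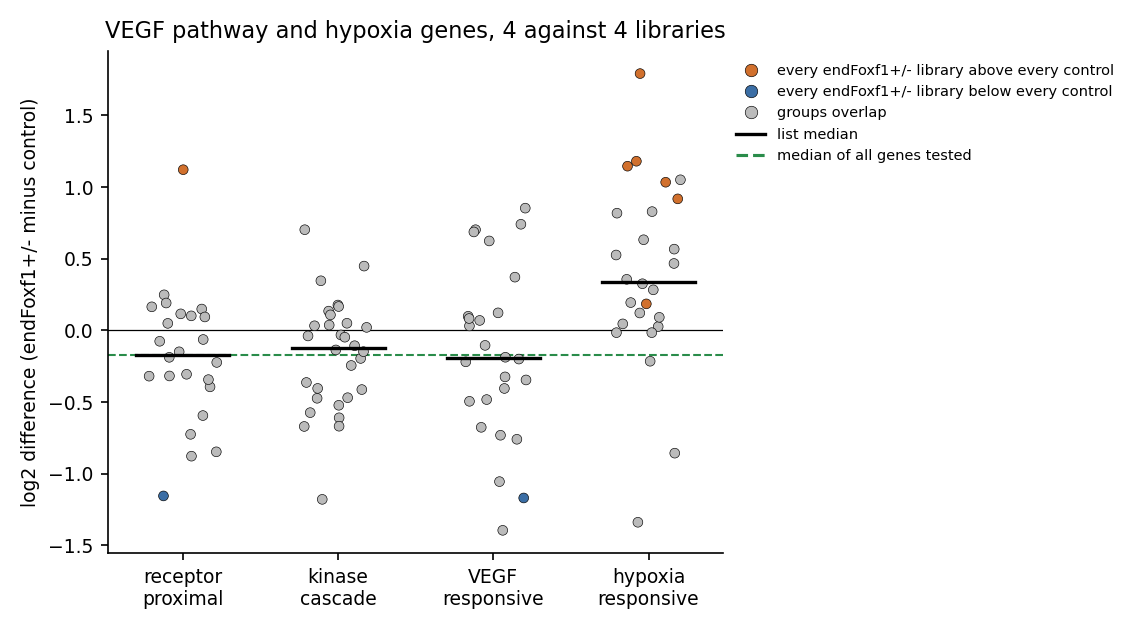
Difference in log2(TPM + 1), endFoxf1+/- minus control, of each tested gene of the 4 lists (points; horizontal jitter has no meaning), with list medians (black bars) and the median over all genes tested (dashed line, -0.17); orange and blue mark genes whose groups do not overlap. The hypoxia list has its median at 0.34 and holds 6 of the 7 orange points, and the other 3 medians lie between -0.19 and -0.12.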

How the data were processed

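TPM per gene symbol were deposited by the authors for 8 libraries. TPM correct for transcript length, sum to 1000000 in a library and hold no read number, so the depth is unknown and only the spread between libraries gives the precision. The submitters' processing notes name TopHat, Cufflinks, Subread, DESeq2, GRCm38 and mm10; which tool made the TPM is not given in the sources used here. The deposited TPM were used unscaled as log2(TPM + 1), a scale that understates the change of low genes. Samples were grouped by the genotype label. Genes reaching a TPM of 1 in 4 or more libraries were fitted with limma 3.58.1 (lmFit, eBayes with trend) in R 4.3.3, with Benjamini-Hochberg adjustment over 14964 genes and a threshold of 0.05. DESeq2, the authors' tool, was not used, since it needs counts. Single values and the 6 ratios were compared by exact two-sided permutation tests (70 assignments; 35 with 1 library left out), in Python 3.11.15. The labels do not tie libraries to batches or say that replicates were prepared apart, so p-values measure the spread between these libraries. None of the 28 pairs of libraries were identical. The fits were run on simulated data whose values were independent, with the same spread in every library. Such data hold no library set apart as H3 is, so the run does not test the fits for that case.

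Named genes were the 7 members, Vegfd, Nrp1, Nrp2, Foxf1, in each of 4 pathway lists the 3 tested genes of smallest p and the 3 of highest mean TPM, and for each member the 3 genes of highest Pearson r over 8 libraries and over 7 without H3. The members and lists were chosen with earlier results of these data known. Tried as alternatives were pseudocounts of 0.1 and 5, a filter at a TPM of 5 or none, quantile or median-ratio scaling, rescaling without the most abundant symbol and mitochondrial genes, eBayes without trend, array weights, the endothelial level as covariate, other endothelial references and each library left out; leaving out H3 and H4 together was added after seeing the data. Promoter windows are RefSeq's (GRCm38.p6), positions GENCODE vM21's.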

Additional observations from a re-analysis of the deposited data

Results flagged for a closer look

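Of 56 groups of 4 values examined (levels, levels relative to endothelial markers, and ratios), 8 had 1 library further from the others than Dixon's 95% critical value for 4 samples allows, a gap that chance gives in about 1 in 20 groups; 6 of the 8 were H3. The ratio of the gap to the group's range was 0.886 for the level of Kdr, 0.899 for Flt1, 0.952 for Flt4 and 0.875 for Nrp1, H3 being the lowest each time. It was 0.943 for Vegfb relative to the endothelial markers, with H3 highest, and 0.876 for the ratio of Vegfa to Vegfb, with H3 lowest. H3 held 5.60% of the control mean in endothelial markers and the highest myeloid and fibroblast marker sums, whose part was not tested. Among the control libraries C4 was the lowest for Flt1 relative to the markers (0.913) and C3 the lowest for the ratio of Flt4 to Kdr (0.990), in groups whose whole range was small.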

How the results depend on the processing

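Of 478 recomputed values 431 kept their direction and their side of the threshold, or for counts the size. Array weights moved the count of genes past the threshold the most, to 148 in place of 0, 1 member (Pgf, 1.40) and 3 list genes (Dab2, Egln3 and Rgcc) among them, and Vegfa turned to 0.26; H3 and H4 carry little weight there by construction. With the endothelial level as covariate 1 gene passed, and Vegfa was 0.31, Vegfb -0.24, Flt1 0.12 and Flt4 0.18. Without both H3 and H4 (chosen after seeing the data) 3 genes passed; levels turned for Vegfa (0.32), Flt1 (0.062) and Flt4 (0.085), relative levels for Vegfb (-0.0038), Vegfc (-0.66), Flt1 (-0.043), Flt4 (-0.021) and Nrp1 (-0.19), the ratio of Vegfa to Vegfb was 0.22, and that of Pgf to Vegfa was 0.86, which 15 assignments cannot bring under the threshold (0 of 6 ratios then passed). With Pecam1 alone as the reference Vegfc was -0.022 and Nrp1 -0.012. With a pseudocount of 5, 9 genes in place of 1 passed relative to the endothelial markers (limma), and 0 members. A pseudocount of 5, close to the TPM of Pgf, left 0 of 6 ratios past the unadjusted threshold (Pgf to Vegfa 1.201, exact permutation p = 0.0571); the cause of the other changes was not tested.

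Leaving out 1 library at a time gave 0 to 1 genes past the adjusted threshold by level and 1 to 2 relative to the endothelial markers, 0 members on either scale, and 0 to 2 of the 6 ratios at an unadjusted exact permutation p under 0.05. The level differences ran from -1.06 to 0.14 for Vegfa, -0.26 to 0.39 for Vegfb, -1.25 to -0.71 for Vegfc, 0.50 to 1.14 for Pgf, -1.72 to -0.23 for Kdr, -1.34 to -0.04 for Flt1 and -1.19 to 0.032 for Flt4. Relative differences ran from 0.35 to 0.61 for Vegfa, -0.051 to 1.67 for Vegfb, -0.50 to 0.38 for Vegfc, 1.35 to 2.36 for Pgf, -0.27 to 0.025 for Kdr, 0.08 to 0.31 for Flt1 and 0.15 to 0.42 for Flt4. The ratio of Flt1 to Kdr ran from 0.192 to 0.482, Kdr to Vegfa from -0.872 to -0.371, Flt1 to Vegfa from -0.389 to -0.180, and Flt4 to Kdr from 0.265 to 0.529. That of Vegfa to Vegfb ran from -1.24 to 0.40 and that of Pgf to Vegfa from 1.001 to 1.82, its exact permutation p being 0.0571 without any 1 control library and that of Flt4 to Kdr 0.0286 without H1 (0.0286 is the smallest p that 35 assignments can give). Turns of sign came with H3, except for the level of Vegfb (-0.04 without C4, -0.03 without H2) and Kdr relative to the markers (0.025 without C3). No paired analysis was possible because GEO's labels give no replicate numbers that the groups share; the numbers 1 to 4 used here follow accession order and pair nothing. TPM carry no depth, so low values such as those of Pgf have no counting error beside them.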
